A study of Mus musculus with 8 samples.

Results

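Integrins and laminins are a receptor and ligand pair of cell adhesion. The genes described here encode their subunits: 25 genes for integrin alpha and beta subunits and 10 genes for laminin alpha, beta and gamma chains. Members were taken by gene symbol (Itga or Itgb followed by a digit or by one of a few single letters, and Lama, Lamb or Lamc followed by a digit). The symbol rule itself uses no measured value, but it was set with earlier results of these data known. The symbol rule gave 36 of the 18193 genes with a probe set annotated to a single gene. One of them, Itgb3bp, encodes a protein that binds an integrin tail and acts at centromeres. It is no subunit, was below background on all 8 arrays by its representing probe set (another of its 5 probe sets read 173 in KO and 178 in WT at the implantation site, just above it), and is left out of the counts that follow. The remaining 35 subunit genes had 76 probe sets, and each gene was represented by its probe set of highest mean signal on the log2 scale. Of the 35, 23 (15 integrin and 8 laminin genes) lay in the upper 50% of probe sets by mean signal and were tested. The other 12 were Itga1, Itga2, Itga4, Itga5, Itga7, Itga10, Itgam, Itgax, Itgb4, Itgb8, Lama3 and Lamb3. Itga11 and Itgad were not analysed here.

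RNA was measured on 8 Affymetrix arrays of mouse material, read out as linear MAS5 signal intensity. KO stands for a knockout of Gja1, the gene of the gap junction subunit connexin 43, and WT for wild type. The groups were MII oocytes (mature, unfertilised eggs) labelled KO and WT with 1 array each, blastocysts labelled KO and WT with 2 arrays each, and embryos from implantation sites labelled KO and WT with 1 array each. The labels name no strain, age, Cre driver or deleted part of the gene, and do not say whether an array held pooled embryos or whether replicates came from separate animals, so the p-values may measure technical spread only. The array median signal was between 134 and 220. The level of background was taken as the brightest of 27 Bacillus control probe sets, which was 131 to 588 by array, and a gene is called above background on an array where its signal exceeded it.

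The representing Gja1 probe set checks the labels. It gave 375 and 553 in KO blastocysts against 9835 in WT replicate 1. The array labelled WT replicate 2 gave 574, close to the KO arrays. At the implantation site Gja1 gave 28105 on the array labelled KO and 44493 on the array labelled WT, and in oocytes 149.7 in KO and 126 in WT, both below background. Genotype names below are therefore those of the labels, for the implantation site KO array and for WT replicate 2 of the blastocysts in particular. The labels call the third stage an embryo, but its arrays carried markers of uterine stroma beside some embryonic ones. Of 9 markers of uterine stroma and decidua, 8 on the KO and 9 on the WT array were above background, and their summed signal was 76533 in KO and 64985 in WT, against 1258 to 2612 over the blastocyst arrays. Of 6 inner cell mass markers, 2 on each implantation site array were above background, and their summed signal was 2862 in KO and 6482 in WT, against 14281 to 31183 in blastocysts. Most of that sum was Klf4 (2502 in KO, 6151 in WT), a factor that other cell types express too, which was near its blastocyst range of 2552 to 7958. Sall4 was above background on the KO array (158 in KO, 16.7 in WT) and Pou5f1 on the WT array (130.0 in KO, 210.3 in WT). Nanog (4.9 in KO, 10.6 in WT), Sox2 (39.3 in KO, 60.2 in WT) and Fgf4 (27.4 in KO, 33.2 in WT) were below it on both. Of 7 trophectoderm markers, 4 on each implantation site array were above background, with sums of 5149 in KO and 3096 in WT. In blastocysts that sum was 52442 to 65627. Of 8 markers of primitive and parietal endoderm, 6 on the KO and 7 on the WT array were above background. They summed to 32557 in KO and 22150 in WT, mostly Pdgfra (26657 in KO, 16941 in WT), against 11424 to 20381 in blastocysts. Leukocyte markers (7 of 8 above background on each array) summed to 46262 in KO and 36037 in WT, against 4064 to 16562 in blastocysts. Csf1r (19673 in KO, 18588 in WT) and Laptm5 (21153 in KO, 12741 in WT) made up most of this. In blastocysts Csf1r gave 593 to 11937 and Laptm5 2219 to 2490. Ptprc gave 3687 in KO and 2558 in WT, against 3.0 to 120.4 in blastocysts. Tyrobp (704 in KO, 666 in WT) lay within its blastocyst range of 287 to 1842. Of 7 markers of uterine epithelium, 6 on the KO and 4 on the WT implantation site array were above background. Their sum was lower there, at 1831 in KO and 2115 in WT, against 7380 to 24885 in blastocysts. Most of the blastocyst sum was Epcam (4239 to 19975). The oocyte arrays differed in the ratio of 3' to 5' Actb probe sets, a measure of RNA integrity and labelling, which was 6.68 in KO and 33.4 in WT. Blastocyst arrays also stood apart by genotype in this ratio, with 25.7 and 39.0 in KO against 69.3 and 69.1 in WT. The same ratio for Gapdh went the other way in blastocysts, with 11.19 and 11.82 in KO against 7.27 and 7.71 in WT. In oocytes the Gapdh ratio was 2.41 in KO and 10.09 in WT. Blastocyst arrays stood apart in background level too, with 535 and 559.7 in KO against 322 and 345 in WT.

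An integrin is a heterodimer of an alpha and a beta subunit that spans the membrane and couples the extracellular matrix to the actin cytoskeleton. The subunits that pair decide the ligand. Alpha 3, alpha 6 and alpha 7 with beta 1 bind laminins, and alpha 6 with beta 4 does so in hemidesmosomes. Alpha v, alpha 5 and alpha 8 bind matrix proteins that carry the tripeptide RGD, such as fibronectin and vitronectin. Laminins are trimers of an alpha, a beta and a gamma chain that form the sheet of basement membranes. In the mouse embryo laminin and beta 1 integrin are needed around the time of implantation, and alpha v and beta 3 integrins are studied as attachment receptors of the blastocyst and uterus.

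The promoter windows of 4 members are shown, which are among the genes with differences between stages described below: Itgav and Itgb1, high at the implantation site, and Itgb5 and Lama5, high in blastocysts. Each window holds the 250 bases before the RefSeq transcription start on GRCm38.p6, 5′ to 3′ on the gene's strand, and capitals mark the GC box GGGCGG on either strand. Itgav lies at chr2:83724147-83724396 on the plus strand, inside the annotated gene, and Itgb1 at chr8:128685404-128685653 on the plus strand. Itgb5 lies at chr16:33829415-33829664 on the plus strand and Lama5 at chr2:180225860-180226109 on the minus strand, where it overlaps the annotated gene at its 5′ end.
Itgav: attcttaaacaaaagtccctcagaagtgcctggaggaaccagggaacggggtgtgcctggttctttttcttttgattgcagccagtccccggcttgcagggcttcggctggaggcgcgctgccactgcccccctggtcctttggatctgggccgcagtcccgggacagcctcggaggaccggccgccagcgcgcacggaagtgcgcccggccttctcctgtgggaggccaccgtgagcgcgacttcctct
Itgb1: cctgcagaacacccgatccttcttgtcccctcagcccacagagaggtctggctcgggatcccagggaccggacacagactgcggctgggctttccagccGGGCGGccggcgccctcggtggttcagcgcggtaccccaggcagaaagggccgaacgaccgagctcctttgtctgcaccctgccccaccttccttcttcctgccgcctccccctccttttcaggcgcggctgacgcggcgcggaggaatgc
Itgb5: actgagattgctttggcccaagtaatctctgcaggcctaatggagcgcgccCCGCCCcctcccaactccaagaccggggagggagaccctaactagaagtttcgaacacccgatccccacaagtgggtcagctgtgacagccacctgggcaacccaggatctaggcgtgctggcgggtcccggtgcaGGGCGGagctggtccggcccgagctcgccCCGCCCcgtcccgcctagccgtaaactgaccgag
Lama5: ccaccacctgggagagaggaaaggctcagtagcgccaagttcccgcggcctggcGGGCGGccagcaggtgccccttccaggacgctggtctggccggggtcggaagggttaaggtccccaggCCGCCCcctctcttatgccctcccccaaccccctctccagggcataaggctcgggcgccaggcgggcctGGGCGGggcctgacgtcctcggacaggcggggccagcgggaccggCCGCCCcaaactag
The windows hold 0 GC boxes in Itgav, 1 in Itgb1, 3 in Itgb5 and 4 in Lama5. Their GC content is 64.4%, 68.0%, 65.2% and 72.4% in that order, against a median of 52.4% over all 32851 promoters in the table. A GC box was found in 32.7% of those promoters. Of the 35 members, 23 matched an entry, with 26 promoters between them. Of these 26, 9 held a GC box, 4 a CCAAT box (CCAAT, 33.8% of all promoters), 1 an AP-1 site (TGANTCA, 6.75%), and 0 a TATA box (TATAAA, 12.4%) or an E-box (CACGTG, 6.02%), each searched on both strands. No motif but the GC box was found in the windows printed here, so none overlaps another. These matches describe letters only. The annotated genes on the same build span chr2:83722303-83806917 for Itgav, chr8:128685654-128733579 for Itgb1, chr16:33829665-33949338 for Itgb5 and chr2:180176373-180225904 for Lama5. Itga6 spans chr2:71786886-71858427, Itga8 chr2:12106632-12301985, Lamb1 chr12:31265146-31329644 and Lamc1 chr1:153218922-153332786.

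Detection of the 35 subunit genes was counted by stage. Above background on every array of their stage were 11 members in oocytes, 7 in blastocysts and 18 at the implantation site. The background level was 131 in KO and 174 in WT at the implantation site, and 588 in KO and 171 in WT oocytes. In blastocysts it was 322 to 559.7, with the most arrays to pass. The part of both in these counts was not tested, and the share of all genes was not counted. The counts therefore do not compare the stages. Only 5 members were above background on all 8 arrays: Itga6, Itgav, Itgb5, Lama5 and Lamb1. Another 4, Itga5, Itgam, Itgb4 and Lamb3, were above it on none, judged by the representing probe set. The heat map of log2 signal by array shows the high implantation site values of Itgb8, Itga1, Itgav and Itgb1, and the high blastocyst values of Itgb5 and Lama5.

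**Figure D1:**
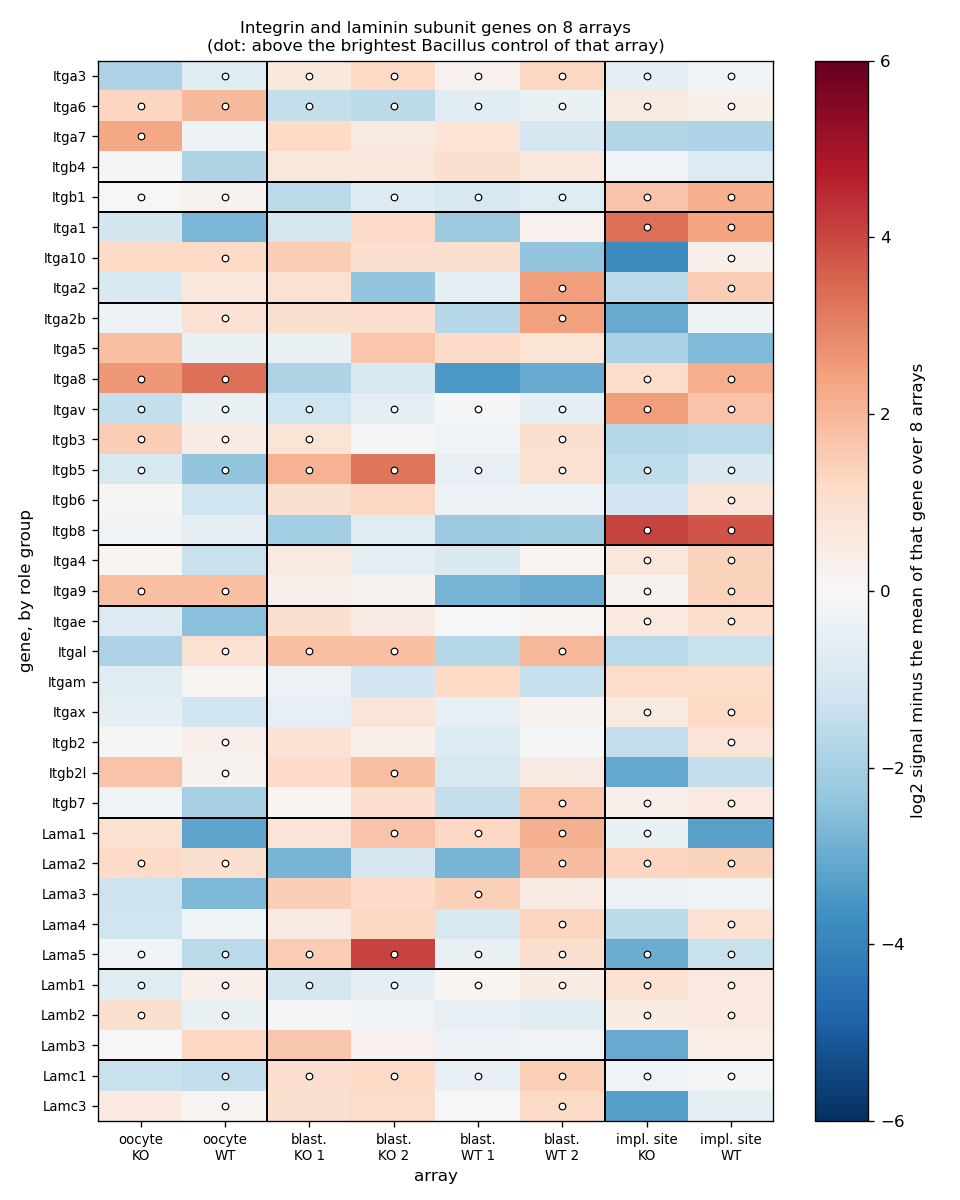
Log2 signal of each of the 35 subunit genes minus that gene's own mean over the 8 arrays (colour), by array (columns, KO left of WT within a stage) and gene (rows, grouped by role and divided by black lines). A dot marks a signal above the brightest Bacillus control of the array, a level that differed between arrays. Dots are on both implantation site arrays for 18 genes, on all 4 blastocyst arrays for 7 and on both oocyte arrays for 11.

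Stages were compared with limma over all 8 arrays with genotype as a term, adjusted by Benjamini-Hochberg over 11746 genes. In blastocysts against oocytes, 9 of the 23 tested members (39.1%) passed at an adjusted p under 0.05, against 45.5% of all genes tested. They were 5 higher (all genes 26.9%) and 4 lower (18.6%). At the implantation site against blastocysts 11 members (47.8%) passed, against 35.3% of all genes, with 5 higher (15.3%) and 6 lower (20.0%). At the implantation site against oocytes 6 members (26.1%) passed, against 37.2% of all genes, with 3 higher (20.5%) and 3 lower (16.6%). Median log2 differences of the 23 members were 0.41, -0.60 and 0.27 in these comparisons, beside 0.43, -0.35 and -0.06 over all genes. The 26 differences that passed came from 15 members, and 8 of the 26 passed with any 1 array left out: Itga6, Itga8 and Itgb5 in blastocysts against oocytes, Itga8, Itgav and Itgb1 at the implantation site against blastocysts, and Itgav and Itgb1 at the implantation site against oocytes. Fewer cells of a type and less RNA per cell cannot be told apart in these bulk samples. The uterine stroma and leukocyte markers above moved with the third stage. Their part in the stage differences was not tested.

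**Figure D2:**
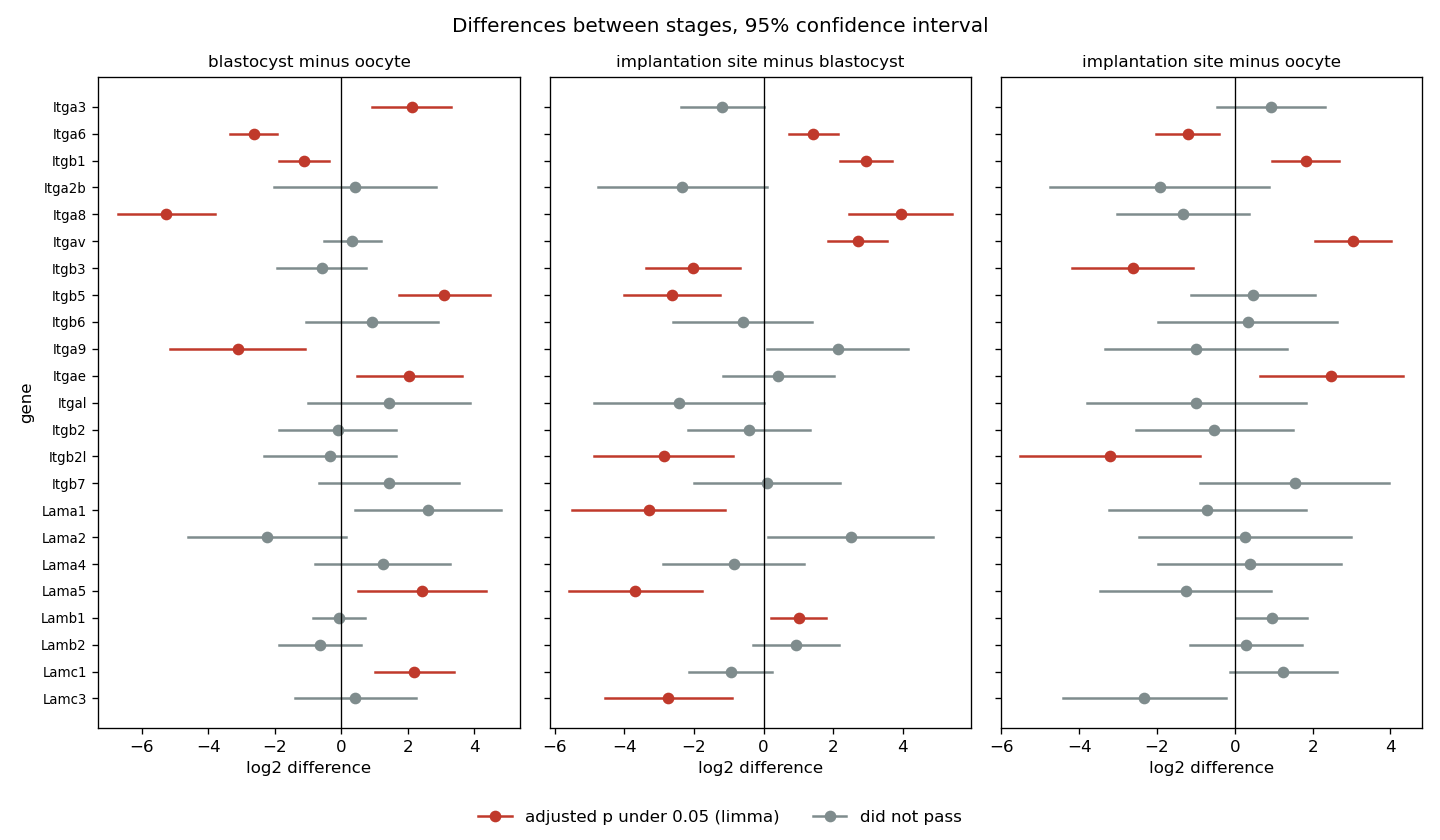
Log2 difference between stages with its 95% confidence interval from limma over 8 arrays, for the 23 tested members (rows, in role order). Red marks an adjusted p under 0.05: 9 members in blastocysts against oocytes, 11 at the implantation site against blastocysts and 6 at the implantation site against oocytes.

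Among the laminin receptors, Itga6, the alpha 6 subunit that pairs with beta 1 or beta 4, was high in oocytes, lowest in blastocysts and intermediate at the implantation site. Its signal was 13743 in KO and 21819.9 in WT oocytes, 2054 and 1921 in KO against 3562 and 4198 in WT blastocysts, and 8053 on the KO against 6967 on the WT implantation site array. No blastocyst array reached either other stage. Itga6 was 6.25-fold lower in blastocysts than in oocytes (log2 -2.64, SE 0.32, adjusted p = 4.93e-05, limma) and 2.70-fold higher at the implantation site than in blastocysts (log2 1.43, SE 0.32, adjusted p = 0.0055). The second step was 0.90 and did not pass without the implantation site KO array (adjusted p = 0.0924), and a second Itga6 probe set showed the first step (-2.38) but gave 0.02 for the second. Against oocytes the implantation site was lower by a log2 difference of -1.21 (SE 0.37, adjusted p = 0.0234), which did not pass without either oocyte array or without the implantation site WT array (adjusted p 0.0795 to 0.179).

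Itga3, the alpha 3 subunit of a laminin receptor of epithelia, was above background on all blastocyst arrays by its representing probe set. Its signal was 111 in KO and 237 in WT oocytes, 613 and 898 in KO against 475 and 933 in WT blastocysts, and 267 on the KO against 359.8 on the WT implantation site array. The stages did not overlap, and the KO oocyte array was below background. Itga3 was higher in blastocysts than in oocytes (fitted log2 difference 2.12, SE 0.55, adjusted p = 0.00797, limma), and this did not pass without the oocyte KO array (1.58, adjusted p = 0.0771). When all Itga3 probe sets were averaged, the difference of blastocysts from oocytes was 0.83 and did not pass (adjusted p = 0.373, limma). The difference of the implantation site from blastocysts was -1.18 (adjusted p = 0.112). Itga7, the laminin receptor subunit of muscle, exceeded background on the KO oocyte array only (675 in KO, 110.03 in WT), and Itgb4, the hemidesmosome subunit, on no array (29.2 to 201).

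Itgb1, the beta 1 subunit shared by laminin, collagen and fibronectin receptors, was highest at the implantation site. Its signal was 1332 in KO and 1569.7 in WT oocytes, 452.5 and 793 in KO against 686 and 806 in WT blastocysts, and 4411 on the KO against 5913 on the WT implantation site array. Both implantation site arrays lay above every other array, and the first KO blastocyst array was below background. Itgb1 was 7.65-fold higher at the implantation site than in blastocysts (log2 2.94, SE 0.34, adjusted p = 0.000101, limma; 2.78 to 3.10 with any 1 array left out) and 3.53-fold higher than in oocytes (log2 1.82, SE 0.39, adjusted p = 0.00358). A second Itgb1 probe set gave 3.05 and 1.69. When all Itgb1 probe sets were averaged, the difference from blastocysts was 1.46 and did not pass (adjusted p = 0.0811, limma). On that average, blastocysts differed from oocytes by -0.63 (adjusted p = 0.44), which did not pass either. Blastocysts were lower than oocytes by a log2 difference of -1.12 (SE 0.34, adjusted p = 0.0187), which did not pass without either oocyte array or without KO blastocyst replicate 1 (adjusted p 0.0531 to 0.0969).

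Among the receptors for RGD proteins, Itgav, the alpha v subunit that pairs with beta 1, beta 3, beta 5, beta 6 and beta 8, also rose at the implantation site. Its signal was 1396 in KO and 2892 in WT oocytes, 1687 and 2599 in KO against 3588 and 2541 in WT blastocysts, and 21497 on the KO against 12571 on the WT implantation site array. Oocyte and blastocyst arrays overlapped, and the implantation site arrays lay apart from both. The rise was 6.54-fold from blastocysts (log2 2.71, SE 0.39, adjusted p = 0.000422, limma) and 8.18-fold from oocytes (log2 3.03, SE 0.45, adjusted p = 0.000341). Of the other 4 Itgav probe sets, the only one in the upper 50% had opposite values, -2.91 and -1.47. That probe set was below background on both implantation site arrays (21.05 in KO, 121 in WT) and on 3 of 4 blastocyst arrays. With the mean of all Itgav probe sets the differences were -0.40 and -0.65.

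Itgb8, which pairs with alpha v and takes part in activating TGF-beta, was outside the tested genes because its mean signal was low. It gave 88.1 in KO and 69.0 in WT oocytes, 23.8 and 60.2 in KO against 21.4 and 22.7 in WT blastocysts, and 1663 on the KO against 1349 on the WT implantation site array. Only the implantation site arrays were above background. In limma over all 18193 genes without the filter, Itgb8 was at least 3.51-fold higher there than in blastocysts (log2 5.70, SE 0.92, adjusted p = 0.000531) and at least 4.73-fold higher than in oocytes (adjusted p = 0.00838). Bounds of this kind set the background level in place of a signal that did not reach it.

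Itgb5, the beta 5 subunit that forms a vitronectin receptor with alpha v, had its highest signals in blastocysts. It gave 1296 in KO and 497 in WT oocytes, 10965 and 23873 in KO against 1798 and 4776 in WT blastocysts, and 897 on the KO against 1379 on the WT implantation site array. Every blastocyst array lay above the arrays of the other stages. Itgb5 was 8.58-fold higher in blastocysts than in oocytes (log2 3.10, SE 0.63, adjusted p = 0.00178, limma), and the other 3 Itgb5 probe sets gave 2.29, 2.66 and 2.43. It was 6.19-fold lower at the implantation site than in blastocysts (log2 -2.63, SE 0.63, adjusted p = 0.0078). This fall did not pass without the implantation site KO array (-1.27, adjusted p = 0.204), and the other probe sets gave 0.37, -1.73 and 0.29.

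Itga8, the alpha 8 subunit that binds nephronectin in kidney development, was high in oocytes and at the implantation site by its representing probe set. It gave 3395.5 in KO and 5478 in WT oocytes, 159 and 288 in KO against 51.5 and 67.3 in WT blastocysts, and 1173 on the KO against 2530.3 on the WT implantation site array. All 4 blastocyst arrays were below background. Itga8 was at least 10.1-fold lower in blastocysts than in oocytes (log2 -5.26, SE 0.67, adjusted p = 7.2e-05, limma) and at least 4.03-fold higher at the implantation site than in blastocysts (log2 3.94, SE 0.67, adjusted p = 0.00116). A second Itga8 probe set was above background on the WT oocyte array only (239) and read 16.2 in KO and 53.6 in WT at the implantation site. When the Itga8 probe sets were averaged, the differences were -4.32 and 2.38.

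Itgb3, the beta 3 subunit of the platelet fibrinogen receptor and of a vitronectin receptor, was below background at the implantation site. It gave 875 in KO and 434 in WT oocytes, 559 and 289.95 in KO against 277 and 626 in WT blastocysts, and 97.6 on the KO against 103 on the WT implantation site array. The implantation site lay below every other array. Blastocysts were above background on 2 of 4 arrays. The implantation site was lower than blastocysts (fitted log2 difference -2.03, SE 0.61, adjusted p = 0.0242, limma) and at least 4.08-fold lower than oocytes (log2 -2.62, SE 0.71, adjusted p = 0.0127). The first did not pass without KO blastocyst replicate 1, WT blastocyst replicate 2 or either implantation site array (adjusted p 0.0597 to 0.153), and the second not without the KO array of oocytes (0.108) or of the implantation site (0.0649). A second Itgb3 probe set, below the filter, read 527 in KO and 817 in WT at the implantation site and 14.2 to 103 in blastocysts, and the mean of the probe sets gave 1.21 for the first difference. Itga2b, the alpha subunit of the platelet receptor, Itgb6, an epithelial partner of alpha v, and Itga5, the fibronectin receptor subunit, were each above background on 2 arrays or fewer by their representing probe sets. Without the filter, Itga5 had a fitted log2 difference of -3.08 at the implantation site from blastocysts (adjusted p = 0.0373, limma), between signals below background on all arrays.

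Itga9, the alpha 9 subunit that binds tenascin-C and VCAM1, was above background on both oocyte and both implantation site arrays by its representing probe set. Another Itga9 probe set read 15.7 in KO and 24.4 in WT at the implantation site, and a further one 24.0 in KO and 11.7 in WT, all below background. The values that follow are of the representing probe set. It gave 792 in KO and 811 in WT oocytes, 281 and 263 in KO against 33.3 and 29.4 in WT blastocysts, and 267 on the KO against 606 on the WT implantation site array. Itga9 was at least 1.88-fold lower in blastocysts than in oocytes (log2 -3.12, SE 0.92, adjusted p = 0.0167, limma), which did not pass without the oocyte WT array (-2.26, adjusted p = 0.233). The representing probe set of Itga4, the alpha 4 subunit of leukocyte receptors, was above background on both implantation site arrays (204 in KO, 320.1 in WT) and on no other, while another Itga4 probe set reached 173 on the WT oocyte array, just above background. Of the collagen receptor subunits, Itga1 had the same distribution: 46.4 in KO and 15.0 in WT oocytes, 49.8 and 226 in KO against 22.1 and 121 in WT blastocysts, and 994 on the KO against 520.1 on the WT implantation site array. Without the filter, Itga1 was at least 1.68-fold higher there than in blastocysts (log2 3.28, SE 1.04, adjusted p = 0.0327, limma) and at least 2.27-fold higher than in oocytes (log2 4.77, adjusted p = 0.00892). Itga10, a collagen receptor subunit of cartilage, gave 343 in KO and 345 in WT oocytes, 418 and 292 in KO against 289 and 29.2 in WT blastocysts, and 10.5 on the KO against 186 on the WT implantation site array. It exceeded background on the WT oocyte and WT implantation site arrays, and Itga2, the collagen receptor subunit of platelets, on 2 arrays also.

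Subunits of leukocyte integrins were mostly near background. Itgae, the alpha E subunit of lymphocytes in epithelia, gave 111 in KO and 34.2 in WT oocytes, 378 and 269 in KO against 197 and 214 in WT blastocysts, and 292 on the KO against 407 on the WT implantation site array. Above background only at the implantation site, it was at least 1.09-fold higher there than in oocytes (log2 2.48, adjusted p = 0.0365, limma). Its log2 difference of blastocysts from oocytes, 2.05 (adjusted p = 0.037), is between signals below background. The implantation site call was lost without the oocyte WT array, either KO blastocyst array, WT blastocyst replicate 2 or the implantation site WT array (adjusted p 0.0507 to 0.232), and the blastocyst call without the oocyte WT array or any blastocyst array (0.0558 to 0.255). Itgb2l, a relative of the leukocyte subunit beta 2, gave 571 in KO and 203 in WT oocytes, 384 and 615 in KO against 90.6 and 245 in WT blastocysts, and 21.0 on the KO against 64.8 on the WT implantation site array. It was above background on 1 of 4 blastocyst arrays, 1 of 2 oocyte arrays and no implantation site array, so most of these signals are not measured levels. The fitted log2 difference of the implantation site was -2.87 from blastocysts (adjusted p = 0.0301, limma) and -3.21 from oocytes (adjusted p = 0.0328). The first call was lost without either KO blastocyst array, WT blastocyst replicate 2 or the implantation site KO array (adjusted p 0.0659 to 0.413), and the second without either oocyte array, either KO blastocyst array or the implantation site KO array (0.0535 to 0.285). Itgal, the alpha L subunit of lymphocyte receptors, gave 68.1 in KO and 468 in WT oocytes, 869 and 854 in KO against 76.4 and 978 in WT blastocysts, and 81.3 on the KO against 99.6 on the WT implantation site array, and passed in no comparison. Itgb7 and Itgax, subunits of lymphocyte and dendritic cell receptors, exceeded background on both implantation site arrays (203 and 202 in KO, 249 and 314 in WT). Itgb2, the common beta 2 subunit, did so on the WT array only (83.8 in KO, 397 in WT), and Itgam, the macrophage subunit alpha M, on neither (126 on each).

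Laminin alpha chains differed in their stages. Lama5, the alpha 5 chain of most adult basement membranes, had a high signal in blastocysts. It gave 1049 in KO and 377 in WT oocytes, 3336 and 19511 in KO against 868 and 2314 in WT blastocysts, and 149.7 on the KO against 459 on the WT implantation site array. Blastocysts and oocytes overlapped, since the first WT blastocyst array was below the KO oocyte array. Lama5 was 5.37-fold higher in blastocysts than in oocytes (log2 2.43, SE 0.87, adjusted p = 0.0399, limma) and 12.9-fold lower at the implantation site than in blastocysts (log2 -3.69, SE 0.87, adjusted p = 0.00749). The first did not pass without either oocyte array, KO blastocyst replicate 2 or WT blastocyst replicate 2 (adjusted p 0.0688 to 0.224), and the second not without the implantation site KO array (-1.80, adjusted p = 0.203). A second Lama5 probe set gave 0.87 and -1.43, and was above background on only 2 of the 8 arrays.

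Lama1, the alpha 1 chain of early embryonic basement membranes, was above background on 3 of 4 blastocyst arrays. It gave 387 in KO and 22.5 in WT oocytes, 353 and 671 in KO against 482 and 891 in WT blastocysts, and 154 on the KO against 21.4 on the WT implantation site array. The WT implantation site array was below background, as was KO blastocyst replicate 1. The implantation site was lower than blastocysts by a fitted log2 difference of -3.30 (SE 1.00, adjusted p = 0.0248, limma), which did not pass without either WT blastocyst array or either implantation site array (adjusted p 0.0553 to 0.175). Lama2, the alpha 2 chain of muscle laminin, passed in no comparison. It gave 732 in KO and 626 in WT oocytes, 46.95 and 163 in KO against 46.55 and 1169.6 in WT blastocysts, and 798 on the KO against 830.45 on the WT implantation site array. Lama3, an epithelial chain below the filter, gave 62.5 in KO and 23.0 in WT oocytes, 407 and 328 in KO against 399 and 211 in WT blastocysts, and 117 on the KO against 125 on the WT implantation site array. This probe set was above background on WT blastocyst replicate 1 alone, and another Lama3 probe set reached 173 on the WT oocyte array, just above background. Without the filter, Lama3 differed between blastocysts and oocytes by a fitted log2 value of 3.10 (SE 0.83, adjusted p = 0.0102, limma). Lama4, the chain of vessel walls, was above background on the WT implantation site array (66.6 in KO, 359.6 in WT), while a second Lama4 probe set gave 488 in KO and 877 in WT there.

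Lamb1, the beta 1 chain common to many embryonic laminins, was above background on every array. It gave 5101 in KO and 10676 in WT oocytes, 4244 and 5589.8 in KO against 9146 and 11517 in WT blastocysts, and 15806 on the KO against 12819 on the WT implantation site array. It was 2.01-fold higher at the implantation site than in blastocysts (log2 1.01, SE 0.36, adjusted p = 0.0472, limma), close to the threshold. That difference did not pass in 7 of the 8 fits that left out 1 array, all but the one without the implantation site WT array (adjusted p 0.0531 to 0.575), and a second Lamb1 probe set gave -0.50. Lamb2, the beta 2 chain of vessels and neuromuscular junctions, gave 603 in KO and 229 in WT oocytes, 294 and 268 in KO against 220.5 and 189 in WT blastocysts, and 433 on the KO against 477 on the WT implantation site array. It was above background in oocytes and at the implantation site and on no blastocyst array, and passed in no comparison. Lamb3, an epithelial chain, was at 6.9 to 171.

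Lamc1, the gamma 1 chain found in most laminins, was above background on all blastocyst and implantation site arrays. It gave 246 in KO and 222 in WT oocytes, 1266 and 1415 in KO against 435 and 1678 in WT blastocysts, and 516 on the KO against 600.5 on the WT implantation site array. Oocyte arrays lay below all others, and the KO oocyte array was below background. Lamc1 was higher in blastocysts than in oocytes (fitted log2 difference 2.19, SE 0.54, adjusted p = 0.00614, limma), and 2.09 without the oocyte KO array (adjusted p = 0.0504), which did not pass. A second Lamc1 probe set gave 1.78. Lamc3, a gamma chain of few tissues, gave 323 in KO and 239.7 in WT oocytes, 419 and 463 in KO against 211 and 474 in WT blastocysts, and 21.9 on the KO against 142 on the WT implantation site array. It was below background on both implantation site arrays and on 3 of 4 blastocyst arrays. The fitted log2 difference of the implantation site from blastocysts was -2.74 (SE 0.83, adjusted p = 0.0244, limma), and this did not pass without either KO blastocyst array, WT blastocyst replicate 2 or the implantation site KO array (adjusted p 0.0573 to 0.371).

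**Figure D3:**
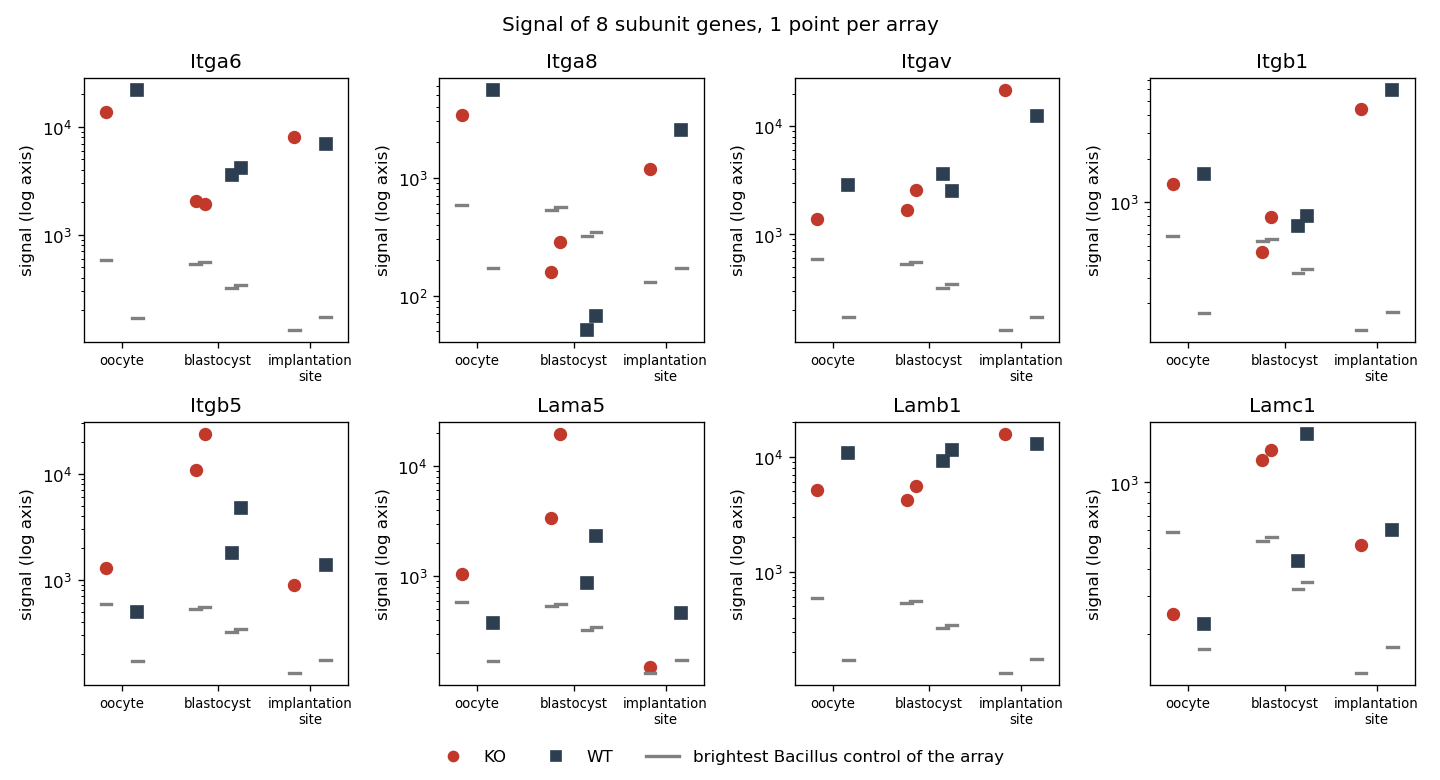
Signal of 8 subunit genes on each array (log axis, a separate scale for each gene), KO as circles left of WT as squares within a stage; grey bars mark the brightest Bacillus control of the array. Itgav and Itgb1 are highest on both implantation site arrays, Itgb5 on the 4 blastocyst arrays, and Itga6 on both oocyte arrays.

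The question of the series is how loss of connexin 43 changes the transcriptome at each stage. In blastocysts, 0 of the 23 tested members passed for KO against WT in limma on the 4 blastocyst arrays (all genes 0.102%, 12 of 11746). At an unadjusted p under 0.05, 4 members were higher and 2 lower in KO (1818 of all genes in either direction). The median log2 difference of the members was 0.61, beside -0.01 for all genes, and 16 of 23 (69.6%) were above 0, beside 49.4% of all genes. Of the 16, 6 (Itga8, Itga9, Itgae, Itgb2, Itgb6 and Lamb2) were below background on all 4 arrays. The part of the higher background level, lower Actb ratio and higher Gapdh ratio of the KO arrays was not tested. The 23 are not independent of each other.

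Itgb5 had the smallest adjusted p of the members. Its KO arrays (10965 and 23873) were above its WT arrays (1798 and 4776), a log2 difference of 2.47 (SE 0.51, 95% confidence interval 1.29 to 3.64, adjusted p = 0.12, limma). The other 3 Itgb5 probe sets gave 0.29, -0.61 and -0.67. The suffix of the representing probe set marks probes that may bind other transcripts. Without WT replicate 2, the array close to KO in Gja1, it was 3.17 and passed (adjusted p = 0.0248), but it was 1.76 without WT replicate 1 (adjusted p = 0.248), 1.90 without KO replicate 2 (0.283) and 0.37 when all Itgb5 probe sets were averaged (0.637). Lama5 had KO arrays at 3336 and 19511 and WT arrays at 868 and 2314. The difference was 2.51 (SE 0.76, adjusted p = 0.216), and 3.78 without KO replicate 1, where it passed (adjusted p = 0.0125). It was 1.24 without KO replicate 2 (adjusted p = 0.533), 1.80 without WT replicate 1 (0.471) and 0.59 when all Lama5 probe sets were averaged (0.662). A second Lama5 probe set gave -0.62, from signals of 194 and 256 in KO against 270 and 432 in WT. Of these, only WT replicate 2 was above background. The remaining Lama5 probe set in the average was above background on no array. The other members higher at an unadjusted p under 0.05 were Itga9 (3.12, adjusted p = 0.219), below background on all 4 arrays, and Itgb2l (1.71, adjusted p = 0.306), below it on 3.

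Lower in KO at an unadjusted p under 0.05 were Lamb1 and Itga6. Lamb1 gave 4244 and 5589.8 in KO against 9146 and 11517 in WT, a log2 difference of -1.08 (SE 0.30, adjusted p = 0.187, limma), and a second probe set gave -0.87. Itga6 gave 2054 and 1921 in KO against 3562 and 4198 in WT, a difference of -0.96 (SE 0.28, adjusted p = 0.207), and a second probe set -0.62. In both genes the KO arrays lay below the WT arrays and both probe sets had the same sign. The second Lamb1 probe set, however, was below background on both KO arrays (292 and 493). Itgal gave 869 and 854 in KO against 76.4 and 978 in WT, a difference of 1.66 (SE 1.01, adjusted p = 0.453). Here the WT arrays lay on either side of the KO arrays, and WT replicate 1 was below background. The fitted difference was 3.50 without WT replicate 2 (adjusted p = 0.0319), which rests on that array alone, and -0.18 without WT replicate 1. With 1 array left in a genotype, limma assumes that it varies like the other genotype's. For Itgb1 the difference was -0.31 (SE 0.45, adjusted p = 0.766), with 0.09 without KO replicate 1, and for Lamc1 it was 0.65 (SE 0.58, adjusted p = 0.614), with -0.33 without WT replicate 1 and -0.76 on a second probe set.

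Replicates of 1 genotype were themselves apart. Of the 23 members, 3 (13.0%) differed at least 2-fold between the KO blastocyst arrays, among all genes 17.5%, namely Itgb5, Lama2 and Lama5. Between the WT arrays 11 members (47.8%) did, among all genes 25.1%.

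**Figure D4:**
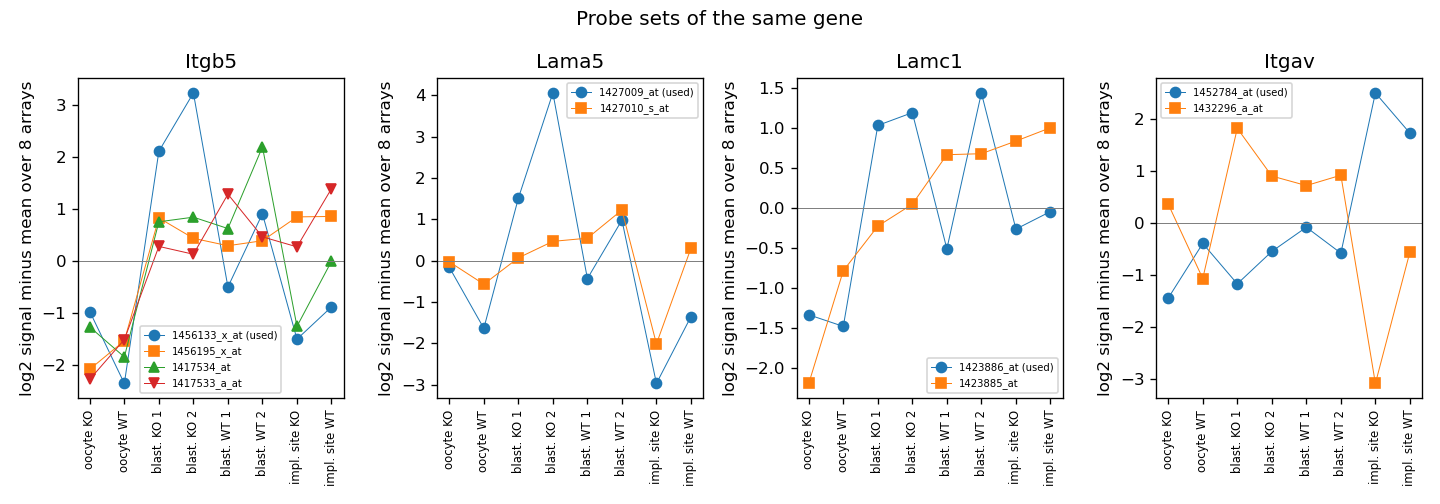
Log2 signal minus the probe set's own mean over the 8 arrays, for the probe sets of Itgb5, Lama5, Lamc1 and Itgav that lie in the upper 50% by mean signal; the one that represents the gene is marked as used. The Itgb5 and Lama5 probe sets lie farthest apart on KO blastocyst replicate 2, and those of Itgav on the KO implantation site array.

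In oocytes, with 1 array per genotype and no test, 9 of the 23 members (39.1%) were at least 2-fold higher in KO, against 23.9% of all genes, and 5 (21.7%) at least 2-fold lower, against 12.3%. The median log2 difference was 0.15 for the members and 0.09 for all genes. The split moved with the scaling: 5 higher and 4 lower after quantile normalization, and 3 higher and 8 lower with a common median, where the medians were -0.40 for the members and -0.45 for all genes. Above background on both arrays and at least 2-fold apart were 6 members. Itgb3 (875 in KO, 434 in WT), Itgb5 (1296 in KO, 497 in WT), Lama5 (1049 in KO, 377 in WT) and Lamb2 (603 in KO, 229 in WT) were higher in KO. Itgav (1396 in KO, 2892 in WT) and Lamb1 (5101 in KO, 10676 in WT) were lower in KO. Above background on 1 array only were Itga7, outside the 23 tested members and higher in KO (675 in KO, 110.03 in WT), and Itgb2l, higher in KO (571 in KO, 203 in WT). Lower in KO were Itga2b (169 in KO, 375 in WT), Itga3 (111 in KO, 237 in WT) and Itgal (68.1 in KO, 468 in WT), each also above background on 1 array only. Of the 9 members higher in KO, Itgae, Itgb6, Itgb7 and Lama1 were below background on both arrays. The background level itself was 588 on the KO and 171 on the WT array, and the part of the difference in array background and Actb ratio was not tested.

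At the implantation site, again with 1 array per genotype, 1 member (4.35%) was at least 2-fold higher on the array labelled KO, against 6.12% of all genes, and 9 (39.1%) at least 2-fold lower, against 15.9%. The median log2 difference was -0.43 for the members and -0.13 for all genes. With quantile normalization the split was 1 higher and 7 lower, and with a common median 2 higher and 7 lower, where the medians were -0.02 for the members and 0.28 for all genes. On both arrays above background and at least 2-fold lower in KO were Itga8 (1173 in KO, 2530.3 in WT), Itga9 (267 in KO, 606 in WT) and Lama5 (149.7 in KO, 459 in WT). Of members above background on both arrays, several differed less than 2-fold: Itgav was 1.71-fold higher, Lamb1 1.23-fold higher, Itga6 1.16-fold higher and Itgb1 1.34-fold lower in KO. Of the genes above background on 1 array, Lama1 was higher in KO (154 in KO, 21.4 in WT), and Itga10, Itga2, Itgb2, Itgb6 and Lama4 were lower in KO. Itgb2 gave 83.8 in KO and 397 in WT, Itgb6 67.4 in KO and 253 in WT, and Itga2 21.5 in KO and 186 in WT. Smooth muscle markers summed to 17683 in KO and 28181 in WT and leukocyte markers to 46262 in KO and 36037 in WT on the same arrays, and their part in these differences was not tested.

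**Figure D5:**
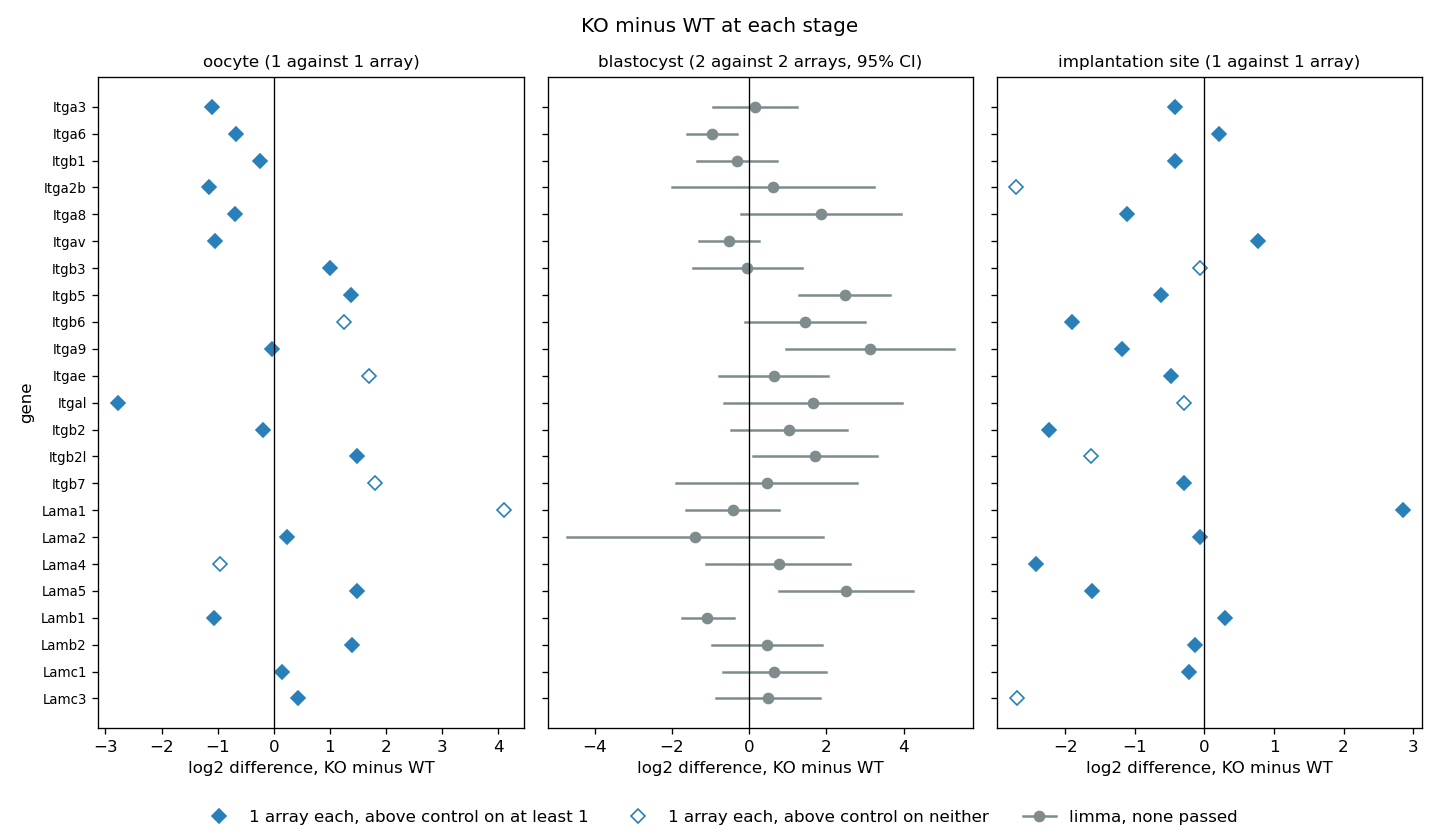
Log2 difference KO minus WT of the 23 tested members at each stage (rows, in role order). Diamonds are differences of single arrays in oocytes and implantation sites, with no error (filled where at least 1 array was above background). Blastocysts have 2 arrays a genotype, with 95% confidence intervals from limma, where 0 members passed.

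Over the 3 stages together, limma with stage as a term found 0 of 23 members with a common KO effect (all genes 0.0%, 0 of 11746). At an unadjusted p under 0.05, 1 member was higher (Itgb5) and 2 were lower (Itga6 and Lamb1), and 813 of all genes passed in either direction. The smallest adjusted p among members was 0.707, shared by Itgb5, Lamb1 and Itga6. Differences of the KO effect between stages were also tested with limma, with a mean for each of the 6 groups, so that the single oocyte and implantation site arrays were assumed to vary like the blastocysts. None of the 23 members passed in any of the 3 contrasts, with smallest adjusted p of 0.255 (Lama1), 0.27 (Itga9) and 0.256 (Itgav), and 3 (13.0%), 11 (47.8%) and 2 (8.7%) members at an unadjusted p under 0.05, beside 11.7%, 12.5% and 15.6% of all genes. Among all genes 2, 0 and 0 passed.

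Genes that work with integrins and laminins were read from 5 lists. Of all genes tested, 26.9% passed as higher and 18.6% as lower in blastocysts against oocytes. At the implantation site 15.3% were higher and 20.0% lower against blastocysts, and 20.5% and 16.6% against oocytes. The counts of each list are to be read beside these shares. Of 20 tested adaptors, which link integrin tails to actin, 11 were higher and 1 lower in blastocysts than in oocytes, with a median log2 difference of 1.83 beside 0.43 for all genes. Tns3, a tensin, was higher, with the KO oocyte array below background (fitted log2 difference 3.96, SE 0.50, adjusted p = 6.77e-05, limma) and Tln1, a talin that activates integrins, was higher from oocyte signals below background (log2 3.46, adjusted p = 0.00144). Cav1, the caveolae protein, was lower, with 3 of 4 blastocyst arrays below background (fitted log2 difference -3.53, adjusted p = 0.00134). Between the implantation site and blastocysts 5 adaptors were higher and 4 lower (median 0.34 beside -0.35). Cav1 gave 8504 on the KO and 8488 on the WT array there, against 44.1 to 352 in blastocysts, and Actn4, an actin crosslinker, was 5.90-fold lower (log2 -2.56, adjusted p = 0.000119). Against oocytes 8 adaptors were higher and 0 lower at the implantation site (median 1.33 beside -0.06). Flna, a filamin that crosslinks actin, was higher from oocyte signals below background (log2 3.65, adjusted p = 0.0149). Vcl, which binds talin and actin, was higher, with the KO oocyte array below background (fitted log2 difference 3.12, SE 0.37, adjusted p = 9.13e-05).

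The list of integrin ligands (13 tested) holds matrix proteins and also cell surface proteins such as Cdh1 and Vcam1. In blastocysts against oocytes 4 were higher and 2 lower. At the implantation site 5 were higher and 2 lower (Cdh1 and Vcam1) against blastocysts, and 4 higher and 1 lower against oocytes. Medians were 1.08, 0.27 and 0.53 in these comparisons, beside 0.43, -0.35 and -0.06 for all genes. Fn1, fibronectin, gave 6463 on the KO and 7748 on the WT implantation site array, against 1097 to 2408 in blastocysts and 423 in KO and 373 in WT oocytes. With the KO oocyte array below background, it was higher at the implantation site than in oocytes (fitted log2 difference 4.16, SE 0.40, adjusted p = 2.46e-05, limma). Ccn1, a secreted ligand of alpha v and alpha 6 receptors, was higher at the implantation site than in blastocysts, where 3 of 4 arrays were below background (fitted log2 difference 4.70, adjusted p = 2.76e-05). Cdh1, the ligand of alpha E and the cadherin of epithelia, was 14.8-fold lower (log2 -3.88, adjusted p = 6.61e-05).

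Basement membrane partners of laminin (10 tested) were 4 higher and 0 lower in blastocysts against oocytes. At the implantation site 3 were higher and 1 lower against blastocysts, and 5 higher and 0 lower against oocytes. Their medians were 0.91, 0.43 and 1.78, beside 0.43, -0.35 and -0.06 for all genes. Nid1, nidogen, which joins laminin to type IV collagen, was higher in blastocysts than in oocytes, with the KO oocyte array below background (fitted log2 difference 3.36, SE 0.35, adjusted p = 1.78e-05, limma). Col4a1, a type IV collagen chain, was 8.06-fold higher at the implantation site than in oocytes (log2 3.01, adjusted p = 0.000461). Dag1, dystroglycan, a laminin receptor outside the integrin family, was higher in blastocysts than in oocytes (log2 1.84, adjusted p = 0.000476) and lower at the implantation site than in blastocysts (log2 -2.03, adjusted p = 0.00058).

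Of 7 tetraspanins and membrane partners of integrins, 1 was higher and 1 lower in blastocysts against oocytes. At the implantation site 3 were higher and 0 lower against blastocysts, and 4 higher and 0 lower against oocytes. Their medians were -0.03, 0.03 and 1.52, beside 0.43, -0.35 and -0.06 for all genes. Cd81, a tetraspanin, gave 9494 on the KO and 8188 on the WT implantation site array, against 91.5 to 479 in blastocysts, where 2 of 4 arrays were below background (fitted log2 difference 4.97, SE 0.57, adjusted p = 9.97e-05, limma). Cd47, a partner of beta 3 integrins, was also higher, with 2 of 4 blastocyst arrays below background (fitted log2 difference 4.24, adjusted p = 2.85e-05). The list of laminin processing (8 genes) holds chaperones and enzymes and also Lgals3 and Ecm1, which are neither. In blastocysts against oocytes 4 of the 8 were higher and 0 lower. At the implantation site 2 were higher and 1 lower (Lgals3) against blastocysts, and 2 higher and 0 lower against oocytes. Their medians were 1.52, 0.89 and 2.13, beside 0.43, -0.35 and -0.06 for all genes. Hspa5, the main chaperone of the endoplasmic reticulum, was 5.30-fold higher in blastocysts than in oocytes (log2 2.40, SE 0.39, adjusted p = 0.000425).

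In none of the 5 lists did a gene pass for KO against WT in limma, in blastocysts or as an effect common to the stages. The medians in blastocysts were -0.14 for adaptors, -0.14 for integrin ligands, -0.23 for basement membrane partners, 0.09 for tetraspanins and -0.06 for laminin processing, beside -0.01 for all genes.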

How the data were processed

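Signal intensity from 8 arrays was deposited as 1 table, made by the authors with MAS5 per the submitters' processing notes, which give no version. The values are linear, with a 2% trimmed mean of 500 on every array and no detection calls, and depth has no count. The number of arrays limits the precision. Of 45101 probe sets, 34945 were annotated to 1 gene by the platform table, 932 to several and 9160 to none, and 64 were controls. The highest mean log2 signal chose the probe set of each gene, and the upper 50% (22519 probe sets, mean signal at least 151) left 11746 genes for testing. Background was the brightest of 27 Bacillus control probe sets, which assumes that no Bacillus RNA was added.

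Limma 3.58.1 in R 4.3.3 (lmFit, eBayes with intensity trend, two-sided, Benjamini-Hochberg over all genes tested) was fitted to log2 intensity: blastocysts by genotype, and all 8 arrays by stage and genotype. The test of the KO effect between stages was added after the data were seen. Stages with 1 array per genotype were described by log2 differences and a 2-fold count. The scripts were tested on simulated data. Members and lists were chosen with earlier results of these data known. All 8 signals are given for members that passed in a tested comparison, for the one with the highest mean signal in each role group and for Itga1, Itgb8, Lama2, Lama3 and Lamb2, chosen after their values were seen. KO differences are given for the largest blastocyst difference per role group among members above background, and for 2-fold differences above background. Partner genes named are among the 3 with the largest difference in a comparison of their list. Promoters are RefSeq sequences of GRCm38.p6. Alternatives were quantile and common-median scaling, a pseudocount of 56.1, no filter, the upper 30%, the mean of all probe sets, probe sets without suffix, no trend, the replicate number as a block, and each array left out. Plots used matplotlib 3.10.9 in Python 3.11.15.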

Additional observations from a re-analysis of the deposited data

Results flagged for a closer look

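Probe sets that do not represent their gene gave signals above background where the representing probe set was lower. For Itga5, the fibronectin receptor subunit, the representing probe set was below background on every array (27.1 in KO and 16.7 in WT at the implantation site), while 2 other probe sets read 587 in KO and 698 in WT, and 173 in KO and 381 in WT, on the implantation site arrays. A second Itgb3 probe set read 527 in KO and 817 in WT there, against 97.6 in KO and 103 in WT for the representing one. A second Lama4 probe set read 488 in KO and 877 in WT at the implantation site, where the representing one gave 66.6 in KO and 359.6 in WT. In oocytes another Itga9 probe set read 2988 in KO and 3336 in WT, while the representing one gave 792 in KO and 811 in WT. No group held enough arrays for a test of single outlying arrays.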

How the results depend on the processing

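Over 33 named differences, 405 recomputed values kept the direction and the side of the threshold, 77 kept the direction and no longer passed, 5 newly passed and 10 turned sign. In blastocysts the count of members that passed for KO against WT was 0, and 2 with the replicate number as a block (Itgb5, adjusted p = 0.0123, and Lama5, 0.0159, limma). With 1 array left out it was 0 to 2, and for the common KO effect 0 to 0. The labels do not pair the replicate numbers, and the correlation of the KO with the WT replicate difference was 0.0182 over 11746 genes and 0.27 over the 23 members. Leaving out 1 array gave 5 to 10 members in blastocysts against oocytes, 4 to 12 at the implantation site against blastocysts and 3 to 7 at the implantation site against oocytes. The mean of all probe sets gave 4 for the implantation site against blastocysts. The sign turned for KO against WT in blastocysts in Itgal (-0.18 to 3.50 with 1 array left out), Itgb5 (-0.61, probe sets without suffix), Itgb1 (-0.72 to 0.09 with 1 array left out) and Lamc1 (-0.06 with the mean of all probe sets, -0.33 to 1.62 with 1 array left out). Between stages it turned with the mean of all probe sets in Itgav (-0.40 against blastocysts, -0.65 against oocytes), Itgb3 (1.21) and Lamb1 (-0.36, and -0.50 with probe sets without suffix). The cause was not tested. All genes called in blastocysts were 12, and 14 with quantile normalization, 73 with a common median, 23 with the pseudocount, 17 without the filter, 34 in the upper 30%, 0 with the mean of all probe sets, 5 without suffix, 0 without the trend, 92 with the block, and 4 to 316 with 1 array left out. Signals below background limit what is known of 12 untested members.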
